A study of Mus musculus with 16 samples.

Results

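The loss of TRIM33 did not change cDC1s and cDC2s alike, and the genes on which the 2 subsets differed were examined here. For each gene the genotype effect in cDC1s (cKO minus WT) was set against the genotype effect in cDC2s, as (cKO cDC1 minus WT cDC1) minus (cKO cDC2 minus WT cDC2) on log2(TPM + 1), where TPM is an abundance corrected for transcript length that sums to 1000000 in each library. All 10 conventional dendritic cell (cDC) libraries of the 16 in the series entered, and 11411 of 17721 genes had a mean of at least 1 TPM and were tested. A positive difference means that the loss of TRIM33 moved the gene higher in cDC1s than in cDC2s. Calls needed, in limma, a Benjamini-Hochberg adjusted p no higher than 0.01 together with a log2 value of 0.5 or more in size. The 2 WT and 2 cKO cDC1 libraries and the 3 WT and 3 cKO cDC2 libraries came from spleens of C57BL/6 mice aged 6 to 8 weeks. WT mice carried loxP-flanked Trim33 alleles (Trim33 fl/fl) without Cre. The cKO mice carried the same floxed alleles together with Itgax-Cre, which recombines in cells that express CD11c, so that each subset was compared between mice that shared the floxed allele. Lineage-depleted splenocytes were sorted as CD11c+ SiglecH- MHC II+ cells, with CD24+ CD172a- as cDC1s and CD24- CD172a+ as cDC2s. Each library pooled cells of several mice, and by the study's account a cKO library pooled more mice than a WT library. Pool size and genotype thus cannot be told apart. The p-values measure the spread between these libraries, with a single estimate of that spread shared by all groups.

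TRIM33 is a RING-domain protein of the TIF1 family that binds modified histone tails, acts as an E3 ubiquitin ligase and is known as a cofactor and regulator of SMAD proteins in TGF-beta signalling. The cDC1 subset depends on IRF8 and BATF3, takes up dead cells through CLEC9A and is known for cross-presentation to CD8 T cells and for IL-12 production. The cDC2 subset expresses SIRPA (CD172a), depends more on IRF4, NOTCH2 and related factors, and mainly primes CD4 T cells.

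The sorted populations carried their labels' markers. Summed over 9 cDC1 marker genes, the level was 4009 to 4189 TPM in WT and 3506 to 3517 TPM in cKO cDC1s. In the 6 cDC2 libraries it was 453.7 to 625 TPM. Summed over 11 cDC2 marker genes, the level was 238 to 293 TPM in cDC1s. It was 1970 to 2223 TPM in WT and 1640 to 1892 TPM in cKO cDC2s. In each subset the sum of its own markers was thus lower in cKO, without overlap. Clec12a on the cDC2 list was higher in cDC1s, at 173 to 219 TPM against 37.3 to 93.5 TPM. Sirpa was at 3.75 to 7.43 TPM in cDC1s and 444 to 582 TPM in cDC2s. Cd24a was at 486 to 693 TPM in cDC1s and 23.4 to 55.1 TPM in cDC2s. Both encode markers of the sort gate, so their separation follows from the sort. Trim33 fell in both subsets, from 15.5 and 18.2 TPM to 7.88 and 7.71 TPM in cDC1s and from 20.6, 18.2 and 17.2 TPM to 7.93, 7.13 and 8.07 TPM in cDC2s. The difference of its 2 genotype effects was 0.16 ± 0.17 (SE, adjusted p = 0.54), with a 95% interval from -0.22 to 0.53. The estimated depth was 18.3 to 19.98 M reads a library, at which 3 reads on a 2000-base transcript are worth 0.142 to 0.172 TPM. Of the sort gate's genes, none was called for the difference in limma, with 1.09 for Siglech (adjusted p = 0.085), 0.66 for Cd24a (0.27), 0.14 for Sirpa (0.76), -0.32 for Itgax (0.35) and -0.50 for H2-Ab1 (0.083). For a gene near the level of 3 reads in 1 group, a fitted log2 value depends on the added 1 TPM and is no bound on a fold change.

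At the edge of the threshold, Lilra6 (1.33) and Stap1 (0.87) were just inside and Armc6 (1.13) and Ptpn3 (1.5) just outside it. In all, 292 genes (2.56% of those tested) differed between the subsets, 138 (1.21%) with a positive and 154 (1.35%) with a negative difference. In single subsets, cKO cDC1s had 15.8% of tested genes called higher and 6.56% lower, and cKO cDC2s had 3.59% called higher and 3.56% lower. A call in 1 subset alone mostly came without a call for the difference. Of 2090 genes called in cDC1s and not in cDC2s, 181 were called for the difference, and of 351 genes called in cDC2s and not in cDC1s, 57 were. Of 439 genes called in both subsets with the same sign, 27 were called for the difference. All 26 genes that were called in both with opposite signs were also called for the difference. The median over all tested genes was 0.17 for the effect in cDC1s, -0.03 for the effect in cDC2s and 0.22 for the difference, so a positive difference starts from that level. Median-of-ratios scaling lowered the median difference to 0.02, and the calls then split into 101 positive and 265 negative. Quantile normalization also gave 101 positive calls, beside 227 negative ones. The number of calls fell to 97 without WT cDC1 replicate 1, to 77 and 94 without cKO cDC1 replicates 1 and 2, and to 116 without cKO cDC2 replicate 3. In every fit that left out 1 of the 10 libraries all 292 genes kept the sign of their difference, and 66 stayed called in all 10 of these fits.

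**Figure D1:**
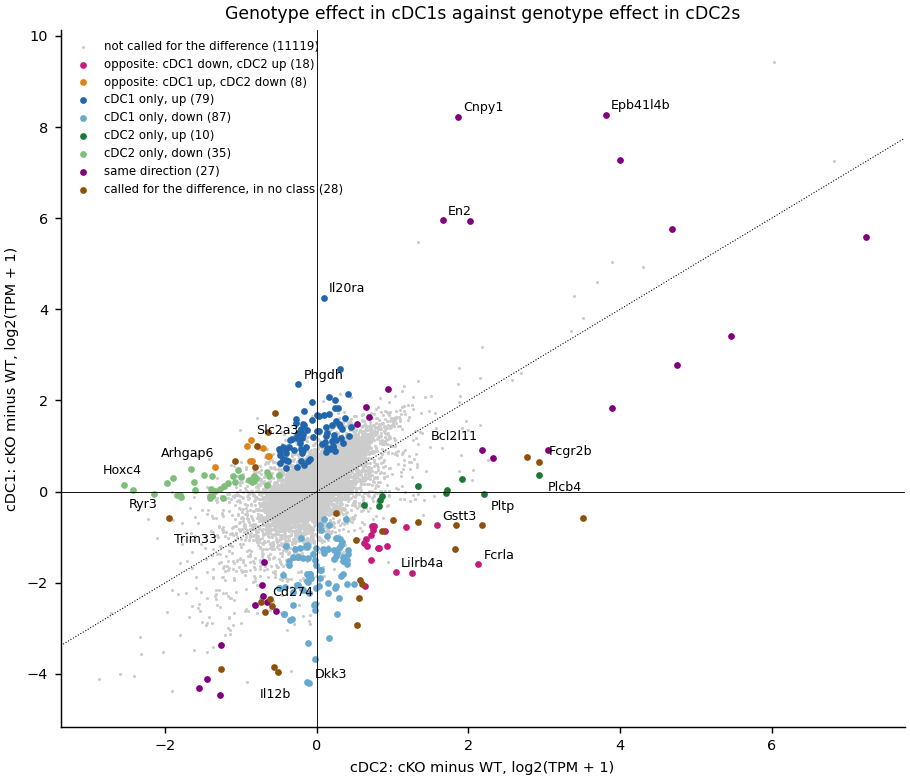
Genotype effect in cDC2s (x axis) against genotype effect in cDC1s (y axis), both cKO minus WT on log2(TPM + 1), for 11411 genes. Grey points are genes not called for the difference, coloured points are the 292 called genes by class with the number of genes, and the dotted line marks equal effects. The 26 genes of the opposite classes lie at the upper left and lower right, and Cnpy1, Epb41l4b and En2 lie highest among the labelled genes.

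The 26 genes with opposite signs fell into 18 that were lower in cKO cDC1s and higher in cKO cDC2s (0.158% of tested genes) and 8 that were higher in cKO cDC1s and lower in cKO cDC2s (0.0701%). The second group depended on the scaling, and the split was 21 and 3 under median-of-ratios scaling, 23 and 4 under quantile normalization and 19 and 4 with FPKM. The 18 included receptors of the immunoglobulin superfamily (Fcrla, Fcgr3, Lilrb4a, Pilrb2 and Pvr), glutathione S-transferases (Gstp3 and Gstt3) and the lectin galectin-3 (Lgals3). The 8 were led by the glucose transporter Slc2a3 and the betaine and GABA transporter Slc6a12. For all 26 the WT and cKO libraries did not overlap in either subset. Because the rule asks for a call in each subset, that separation is part of how they were chosen and is given as a description.

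Fcrla encodes an intracellular Fc receptor-like protein known from B cells. It was at 169.9 and 129 TPM in WT cDC1s and 47.6 and 49.3 TPM in cKO cDC1s, and at 3.27, 5.04 and 3.20 TPM in WT cDC2s and 20.3, 20.2 and 19.1 TPM in cKO cDC2s. The difference was -3.72 ± 0.24 (SE, adjusted p = 5.8e-05), from an effect of -1.59 in cDC1s and 2.13 in cDC2s. No 2 of the 4 groups overlapped, with both cKO cDC1 libraries below WT and all cKO cDC2 libraries above WT, and the levels of the 2 subsets came closer.

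Lilrb4a encodes an inhibitory leukocyte immunoglobulin-like receptor. Its level was 28.3 and 33.1 TPM in WT cDC1s and 6.42 and 10.5 TPM in cKO cDC1s, while cDC2s went from 64.2, 73.6 and 71.3 TPM to 139.8, 127 and 168 TPM. Here the subset with the higher WT level gained and the other lost, so the 2 subsets moved apart, with a difference of -2.81 ± 0.26 (SE, adjusted p = 0.00035). Its neighbour and close copy Lilr4b moved like it in cDC1s, from 12.6 and 14.6 TPM to 1.88 and 1.92 TPM, and its effect of 0.56 in cDC2s was not called (adjusted p = 0.015). Reads of such close copies may have been split between them by the counting, so the values of single copies are uncertain.

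Gstp3 and Gstt3 encode glutathione S-transferases, enzymes that couple glutathione to reactive compounds. Gstp3 was at 32.4 and 16.3 TPM in WT and 6.63 and 5.45 TPM in cKO cDC1s, against 6.97, 5.72 and 6.77 TPM in WT and 18.4, 14.2 and 18.2 TPM in cKO cDC2s. Gstt3 was at 7.29 and 6.32 TPM in WT and 2.99 and 4.46 TPM in cKO cDC1s, and at 7.39, 8.51 and 7.62 TPM in WT and 25.9, 22.3 and 28.7 TPM in cKO cDC2s. In WT, Gstp3 was higher in cDC1s and Gstt3 slightly higher in cDC2s, and in cKO every cDC2 library was above both cDC1 libraries for either gene. The differences were -3.03 ± 0.34 (SE, adjusted p = 0.00088) for Gstp3 and -2.33 ± 0.22 (SE, adjusted p = 0.00042) for Gstt3.

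Ttc39b, which encodes a tetratricopeptide repeat protein, fell from 24.2 and 22.1 TPM to 4.42 and 5.02 TPM in cDC1s and rose from 14.1, 17.8 and 18.2 TPM to 29.8, 24.0 and 25.9 TPM in cDC2s. Ppt2, a lysosomal thioesterase, fell from 216 and 188 TPM to 68.4 and 72.7 TPM in cDC1s and rose from 38.6, 36.7 and 37.5 TPM to 66.8, 50.5 and 72.7 TPM in cDC2s. The 2 subsets started about 2.39 log2 units apart for Ppt2 and ended 0.17 apart in the cKO libraries.

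In the other orientation, Slc2a3 (GLUT3) rose from 1.93 and 3.86 TPM to 7.35 and 7.26 TPM in cDC1s and fell from 91.9, 81.2 and 94.9 TPM to 53.8, 47.2 and 44.4 TPM in cDC2s. The difference was 2.01 ± 0.26 (SE, adjusted p = 0.0021). Arhgap6 rose from 4.47 and 5.01 TPM to 7.20 and 7.35 TPM in cDC1s and fell from 77.4, 68.8 and 75.8 TPM to 30.7, 29.6 and 25.8 TPM in cDC2s, a difference of 1.87 ± 0.15 (SE, adjusted p = 0.00018). Both genes remained many times higher in cDC2s. Slc6a12 went from 2.37 and 3.07 TPM to 6.32 and 6.53 TPM in cDC1s and from 32.1, 28.6 and 49.5 TPM to 21.3, 18.3 and 15.8 TPM in cDC2s. St3gal6 (a sialyltransferase), Rcn3 (a calcium-binding protein of the endoplasmic reticulum) and Faah (fatty acid amide hydrolase) had differences of 1.66, 1.56 and 1.51. These 3 genes were higher in cDC2s in every WT library and higher in cDC1s in every cKO library, and Faah reached only 2.75 TPM.

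The count of 26 depended on single libraries. It was 9 and 12 without WT cDC1 replicates 1 and 2, 8 and 9 without cKO cDC1 replicates 1 and 2, 11 and 12 without WT cDC2 replicates 1 and 2, and 9 and 4 without cKO cDC2 replicates 1 and 3. For the call on the difference, 13 of the 18 genes lower in cKO cDC1s and 2 of the 8 genes higher in cKO cDC1s kept it in each of the 10 fits that left out 1 library. The calls in the single subsets, which make the direction opposite, were lost more often. Among the 13 named genes of these classes, Fcrla alone kept both subset calls in all 22 alternatives. In cDC2s the call was lost in 2 of 22 alternatives for Lilrb4a, 6 for Gstp3, 6 for Ppt2 and 14 for Ttc39b, and in cDC1s in 10 for Gstt3. Fcgr3 lost the cDC1 call in 11 and the cDC2 call in 16. Arhgap6 lost the cDC1 call in 9 of 22, among them the fits without each of the 4 cDC1 libraries, and Rcn3 in 6. Slc6a12 lost the cDC1 call in 12 and the cDC2 call in 15, and Slc2a3 the cDC2 call in 13. Faah lost the cDC1 call in 16 of 21 alternatives and St3gal6 the cDC2 call in 11 of 21. With quantile normalization, and likewise with median-of-ratios scaling, the cDC1 rises of Arhgap6, Slc6a12, Faah and Rcn3 were not called.

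**Figure D2:**
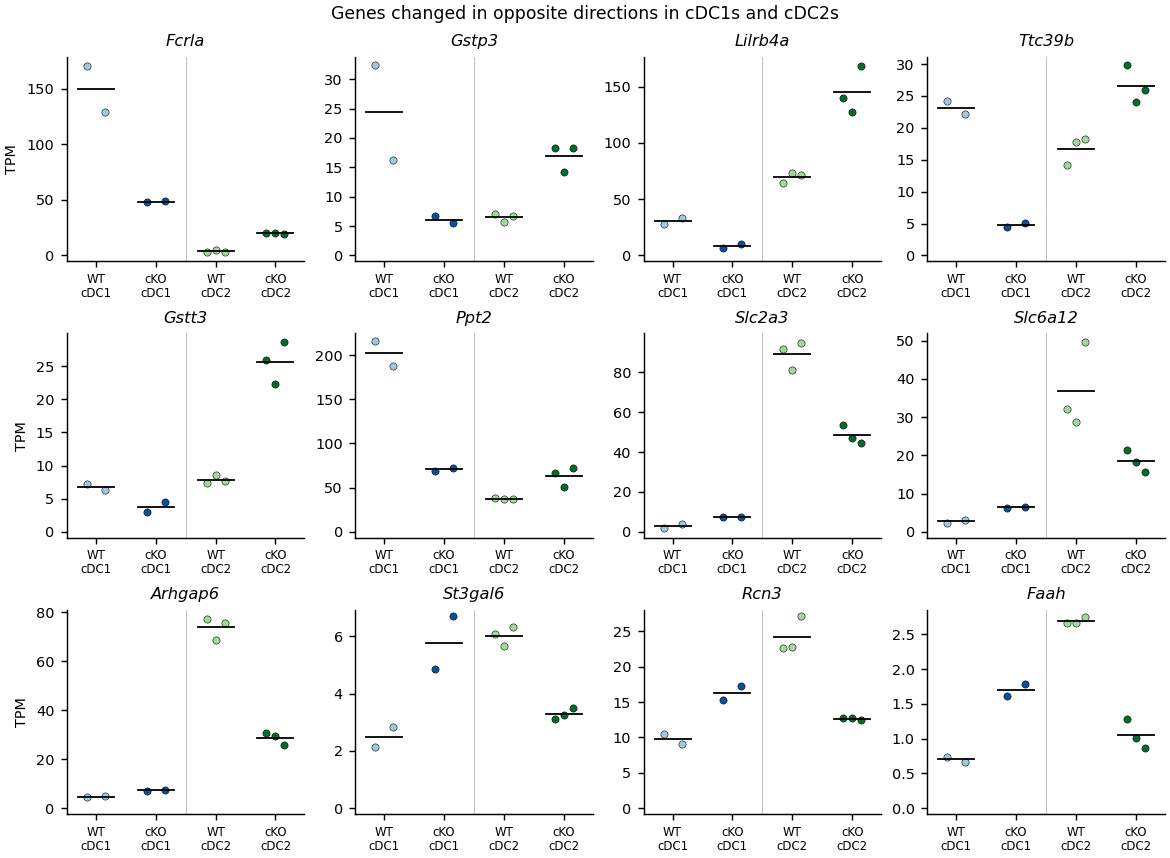
TPM in each of the 10 cDC libraries for the 12 named genes changed in opposite directions, 1 panel a gene, with points for libraries and bars for group means. In the panels of Fcrla, Gstp3, Lilrb4a, Ttc39b, Gstt3 and Ppt2 the cKO points lie below WT in cDC1s and above WT in cDC2s, and in the other 6 panels the order is turned.

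Fcrla was not alone at its place in the genome. Among the 291 called genes with a position, 60 (20.6%) had another called gene within 100 kb, against 828 of 11377 tested genes (7.28%) that had a called gene that near. Overlapping neighbours can share reads, the strand setting of the counting is not given in the sources used here, and the clusters were found after the values were seen. On chromosome 1 (GRCm38, 170906715 to 171065915) Fcrlb, Fcrla, Fcgr2b and Fcgr3 were all called with a negative difference, while the gene Gm39701 and Fcgr4, which lie among them, were not. Fcgr4 had a difference of -0.46 that was not called (adjusted p = 0.14). These genes encode Fc receptor-like proteins and receptors for the constant part of IgG, with Fcgr2b as the inhibitory and Fcgr3 as an activating receptor. Fcrlb was at 37.8 and 27.7 TPM in WT and 16.4 and 21.8 TPM in cKO cDC1s, an effect of -0.74 that was not called, and it rose from 2.34, 4.11 and 3.35 TPM to 18.3, 17.2 and 18.5 TPM in cDC2s. Fcgr3 fell from 3.29 and 2.48 TPM to 1.05 and 1.27 TPM in cDC1s and rose from 23.3, 28.3 and 20.8 TPM to 44.1, 33.3 and 46.3 TPM in cDC2s.

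Fcgr2b behaved otherwise in cDC1s. It was at 127 and 137 TPM in WT and 205 and 208 TPM in cKO cDC1s, an effect of 0.65 that was not called (adjusted p = 0.076), and it rose from 68.7, 148 and 90.1 TPM to 732, 738 and 776 TPM in cDC2s, an effect of 2.93. The 4 neighbours thus shared the gain in cDC2s, and their effects in cDC1s ran from -1.59 to 0.65. Over the 11 listed Fc receptor genes the median difference was -0.82, beside 0.22 over all tested genes. Of these 11 genes, 5 were called higher in cKO cDC2s and none lower, and 3 were called lower and 1 higher in cKO cDC1s.

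A second run of neighbours was on chromosome 10 (GRCm38, 75771233 to 75837419), where Ddt, Gstt3, Gstt1 and Gstt2 all had a negative difference. Ddt encodes D-dopachrome tautomerase, a relative of the cytokine MIF, and the Gstt genes encode theta-class glutathione S-transferases. Gstt1 was at 2.91 and 0.82 TPM in WT and 1.02 and 0.58 TPM in cKO cDC1s, and rose from 0.63, 3.72 and 1.72 TPM to 24.8, 33.7 and 34.0 TPM in cDC2s. Its WT and cKO libraries overlapped in cDC1s, where the effect of -0.58 was not called (adjusted p = 0.34), and did not overlap in cDC2s. Ddt was in cDC1s at 48.6 and 39.2 TPM in WT and 46.7 and 49.0 TPM in cKO, and rose from 55.2, 61.7 and 50.1 TPM to 141, 135 and 147 TPM in cDC2s. Gstt4, between them, was under 1 TPM on average and was not tested. The theta-class genes are similar in sequence, so their counts may share reads.

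**Figure D3:**
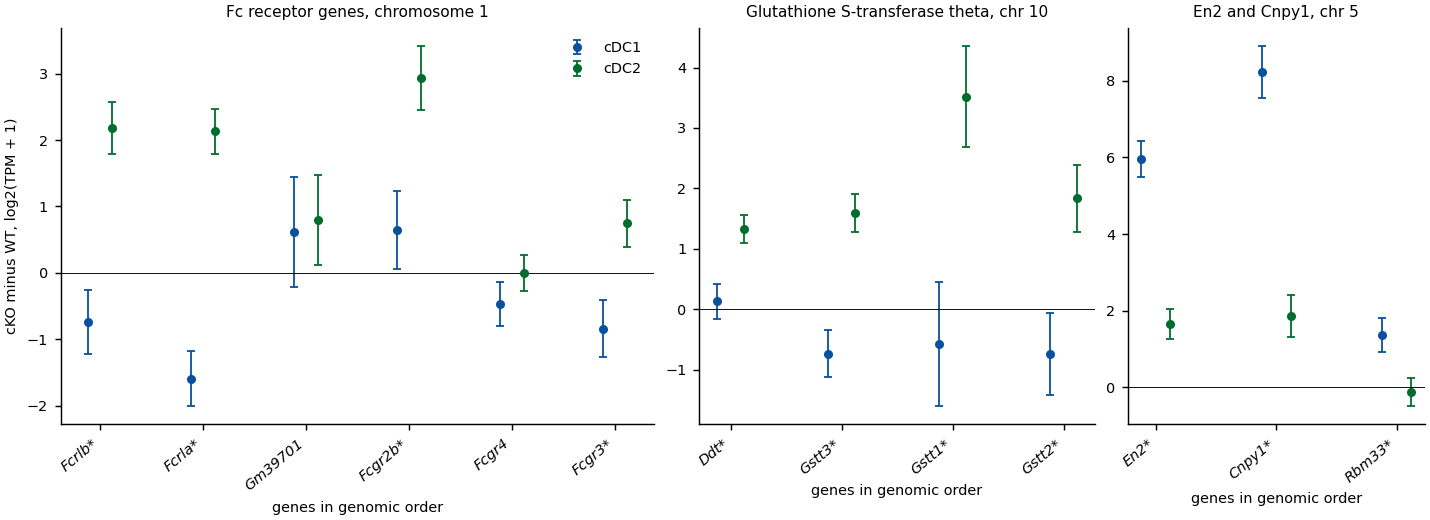
Genotype effect (cKO minus WT, log2(TPM + 1), y axis) in cDC1s (blue) and cDC2s (green) for the tested genes of 3 clusters in genomic order, with points for the estimate and bars for the 95% interval. Asterisks mark genes called for the difference. In the Fc receptor and glutathione S-transferase clusters the green points of the called genes lie above the blue ones, and for En2, Cnpy1 and Rbm33 the blue points lie above the green ones.

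The promoters of 4 genes are shown because they stand for the classes. Fcrla and Fcrlb are neighbours that moved together in cDC2s, Il20ra was called in cDC1s only, and Hoxc4 in cDC2s only. The 250 bases before 1 listed start site of each gene, from RefSeq on GRCm38.p6, are given 5′ to 3′ on the gene's strand. Capitals mark matches to the motifs searched. All 4 stretches lie within the full span of their gene, so each precedes an inner start site. Hoxc4, for example, spans 103018097 to 103036856.
Fcrla (chr1:170927584-170927833, minus strand): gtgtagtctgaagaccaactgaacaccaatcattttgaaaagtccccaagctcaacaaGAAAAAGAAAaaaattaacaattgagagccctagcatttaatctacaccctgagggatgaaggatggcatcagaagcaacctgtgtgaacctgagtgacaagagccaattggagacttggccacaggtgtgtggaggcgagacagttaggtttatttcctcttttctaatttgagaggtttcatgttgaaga
Fcrlb (chr1:170912942-170913191, minus strand): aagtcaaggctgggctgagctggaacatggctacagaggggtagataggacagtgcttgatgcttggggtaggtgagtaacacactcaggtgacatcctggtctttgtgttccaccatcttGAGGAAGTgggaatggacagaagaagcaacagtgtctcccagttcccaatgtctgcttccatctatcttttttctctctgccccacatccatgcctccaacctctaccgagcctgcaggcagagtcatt
Il20ra (chr10:19712337-19712586, plus strand): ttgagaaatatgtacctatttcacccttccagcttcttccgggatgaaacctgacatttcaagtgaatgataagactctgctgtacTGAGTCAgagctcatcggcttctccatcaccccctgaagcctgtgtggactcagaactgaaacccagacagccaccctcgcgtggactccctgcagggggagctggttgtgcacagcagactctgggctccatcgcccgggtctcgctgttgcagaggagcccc
Hoxc4 (chr15:103034145-103034394, plus strand): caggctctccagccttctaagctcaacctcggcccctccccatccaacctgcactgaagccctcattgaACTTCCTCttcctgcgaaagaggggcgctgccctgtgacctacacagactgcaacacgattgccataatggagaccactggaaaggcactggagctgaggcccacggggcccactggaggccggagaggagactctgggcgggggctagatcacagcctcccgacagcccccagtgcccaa
The motifs, searched on both strands in 300-base windows, were AP-1 (TGANTCA), PU.1 (GAGGAAGT), the interferon-stimulated response element (ISRE) and a palindromic SMAD element (GTCTAGAC). In capitals above, Fcrla holds an ISRE match, Fcrlb and Hoxc4 a PU.1 match each and Il20ra an AP-1 match. Of 292 called genes, 228 had a promoter in the table. Over all 32851 promoters, 7.81% held AP-1, 3.20% PU.1, 3.44% ISRE and 0.213% SMAD, and over the 11724 promoters of tested genes 5.09%, 3.45%, 3.32% and 0.256%. Among 18 promoters of 12 genes that were lower in cKO cDC1s and higher in cKO cDC2s, 3 held ISRE, 2 held PU.1 and none held AP-1 or SMAD. Among 81 promoters of genes lower in cKO cDC1s only, 6 held AP-1, 5 PU.1, 3 ISRE and none SMAD. In the class of Il20ra, 9 of 92 promoters held AP-1, 5 PU.1 and 6 ISRE, and in the class of Hoxc4, 4 of 26 held AP-1, 3 PU.1 and none ISRE. Among 14 promoters of genes higher in cKO cDC1s and lower in cKO cDC2s, 1 held AP-1, 1 PU.1 and 2 ISRE, and among 12 of genes higher in cKO cDC2s only, 2 held AP-1 and none the others. No promoter of these 4 classes held SMAD. Several promoters of 1 gene can overlap, and these counts are a description of letters in a window.

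Genes called in cDC1s only were the largest class of differences, 79 higher and 87 lower in cKO cDC1s. Quantile normalization gave 52 higher and 133 lower, FPKM 78 and 134, and median-of-ratios scaling 53 and 159. By the rule their effect in cDC2s was not called and was under 0.5 in size. The 95% interval of the cDC2 effect lay wholly within 0.5 of 0 for 39 of the 79 and 37 of the 87, and for the others a change in cDC2s of that size was not excluded by its interval. Of the 79, 6 kept the call for the difference without each of the 10 libraries in turn, and of the 87, 19 did. The class of 166 held 45 genes without WT cDC1 replicate 1, 27 and 45 without cKO cDC1 replicates 1 and 2, and 97 and 58 without cKO cDC2 replicates 1 and 3.

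Among genes higher in cKO cDC1s, Il20ra, a receptor chain for the IL-20 cytokine family, was at 0 and 0.06 TPM in WT and 18.6 TPM in both cKO cDC1 libraries. It was listed at 0 in the 3 WT cDC2 libraries and at 0.1, 0.09 and 0 TPM in the cKO cDC2 libraries, all below the level of 3 reads. The difference was 4.16 ± 0.20 (SE, adjusted p = 1.6e-05). Tmem229a, a transmembrane protein, likewise went from 0 in both WT to 5.28 and 5.58 TPM in the cKO cDC1 libraries and stayed at or below 0.8 TPM in every cDC2 library.

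Phgdh encodes the enzyme that opens serine synthesis from a glycolytic intermediate. It was at 11.1 and 10.9 TPM in WT and 63.1 and 58.1 TPM in cKO cDC1s, while cDC2s held 9.97, 11.7 and 16.4 TPM in WT and 9.70, 11.8 and 9.52 TPM in cKO. The WT levels of the subsets were alike and the cKO cDC1 libraries were above all others, with an effect in cDC2s of -0.25 and a 95% interval from -0.60 to 0.11. Tnfrsf13b, which encodes the TNF receptor family member TACI, and the sialic acid-binding lectin Cd22 went part of the way to the cDC2 level. Tnfrsf13b rose from 2.86 and 5.74 TPM to 20.0 and 18.1 TPM in cDC1s beside 49.6 to 54.3 TPM in the 6 cDC2 libraries. Cd22 rose from 9.85 and 13.0 TPM to 45.3 and 36.7 TPM in cDC1s, and in cDC2s it was at 117, 113 and 169.9 TPM in WT and 139, 102 and 109.5 TPM in cKO.

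Among genes lower in cKO cDC1s, Il12b led the immune genes. It encodes the p40 chain shared by IL-12 and IL-23. Il12b fell from 69.8 and 101 TPM to 2.76 and 4.82 TPM in cDC1s, to the level of cDC2s, which held 7.32, 5.34 and 4.26 TPM in WT and 3.72, 5.21 and 6.24 TPM in cKO. The difference was -4.05 ± 0.38 (SE, adjusted p = 0.00036), and the effect in cDC2s was -0.13 with a 95% interval from -0.66 to 0.40. Dkk3, a secreted protein of the Dickkopf family, fell from 49.5 and 47.6 TPM to 1.72 and 1.66 TPM in cDC1s and was at or below 0.79 TPM in every cDC2 library. Mab21l3 fell from 59.2 and 42.8 TPM to 2.14 and 4.21 TPM, and the adhesion receptor Adgrf5 from 11.8 and 8.78 TPM to 0.13 and 0.1 TPM, with both below 1 TPM in all cDC2 libraries. These 3 genes were low in cDC2s of either genotype, so a fall there could hardly be measured.

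Cd63, a tetraspanin of late endosomes, was expressed in both subsets. It fell from 106 and 50.6 TPM to 4.26 and 11.2 TPM in cDC1s and was at 38.1, 62.9 and 30.2 TPM in WT and 35.3, 49.6 and 57.5 TPM in cKO cDC2s. Its libraries were scattered within groups, with an adjusted p of 0.0094 in limma for the difference of -3.37 ± 0.60 (SE), and the 95% interval for cDC2s ran from -0.70 to 1.00. Gclc, which encodes the catalytic subunit of the enzyme that limits glutathione synthesis, fell from 224 and 128 TPM to 25.3 and 28.9 TPM in cDC1s beside 21.3 to 26.2 TPM in all 6 cDC2 libraries. It was chosen after its values were seen, because it acts in the pathway of the glutathione S-transferases above.

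Markers of other cell types moved with genotype in cDC1s. The sum of 14 monocyte and macrophage markers was 888 to 1854 TPM in WT and 521 to 529 TPM in cKO cDC1s. In cDC2s it was 2289 to 5079 TPM in WT and 3115 to 4106 TPM in cKO. The sum was swayed by Nr4a1, at 336 and 1097 TPM in WT and 96.1 and 98.1 TPM in cKO cDC1s. In cDC2s Nr4a1 was at 3357, 813 and 830 TPM in WT and 339, 311 and 349.5 TPM in cKO. Of the 13 tested, 2 were called higher and 2 lower in cKO cDC1s, and their median difference was -1.07. The defining marker Adgre1 was at 2.28 to 4.04 TPM in all 4 cDC1 libraries, and Spic, a macrophage transcription factor, was called for the difference at 11.7 and 7.29 TPM in WT and 1.25 and 1.51 TPM in cKO cDC1s. Lyz2, at 280 to 540 TPM in cDC1s, was at 617, 1048 and 798 TPM in WT and 1945, 1981 and 2449 TPM in cKO cDC2s. The part of such cells in the result was not tested. B cells bear on Fcrla, Tnfrsf13b, Cd22 and Blk, which B cells express. Their 10 markers, of which 8 were in the table, summed to 25.7 to 35.1 TPM in WT and 19.4 to 21.2 TPM in cKO cDC1s, and to 52.9 to 67.7 TPM in WT and 52.4 to 55.3 TPM in cKO cDC2s. Single B cell markers moved within that sum. Ms4a1 fell from 17.7 and 21.2 TPM to 6.17 and 6.45 TPM in cDC1s and from 16.7, 21.5 and 12.4 TPM to 5.37, 5.87 and 4.80 TPM in cDC2s, and Cr2 fell from 3.45, 2.84 and 3.49 TPM to 0.59, 0.67 and 0.56 TPM in cDC2s, where Blk also fell. Cd79b, which made up most of the cDC2 sum, was at 29.1 to 35.6 TPM in WT and 39.7 to 40.9 TPM in cKO cDC2s. The part of B cells in these results was not tested. The 11 pDC markers summed to 182 to 199 TPM in WT and 294 to 300 TPM in cKO cDC1s. In cDC2s they summed to 305 to 349 TPM in WT and 372 to 420 TPM in cKO. Bst2 made up most of the cDC1 sum, at 129 and 113 TPM in WT and 199 and 200 TPM in cKO. Ccr9 fell from 17.6 and 18.8 TPM to 8.07 and 9.60 TPM in cDC1s. Pacsin1 fell there from 8.35 and 5.64 TPM to 1.37 and 1.82 TPM. Both were called for the difference, at -1.10 and -1.60. They were the 2 pDC markers called lower in cKO cDC1s, and 4 of the 10 tested were called higher there. In cKO cDC2s 1 was called higher and none lower, and the median difference of the 10 was 0.49. Cox6a2 rose from 0.96 and 0 TPM to 14.85 and 15.53 TPM in cDC1s, and Tcf4 from 6.4 and 10.57 TPM to 17.88 and 16.59 TPM. The part of pDCs in the result was not tested. Neutrophil markers summed to 1.88 to 17.4 TPM in WT and 23.1 to 43.0 TPM in cKO cDC1s, without overlap, and to 8.73 to 35.8 TPM in WT and 20.6 to 84.0 TPM in cKO cDC2s. Erythroid markers varied within WT, from 387 to 3196 TPM in cDC1s and from 1287 to 10768 TPM in cDC2s. No marker on any of these lists was at 0 in every library. In bulk libraries, fewer cells of a type and less RNA per cell cannot be told apart.

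Fewer genes were called in cDC2s only, 10 higher and 35 lower in cKO cDC2s. Quantile normalization gave 27 higher and 29 lower, FPKM 22 and 44, and median-of-ratios scaling 27 and 28. The class of 45 held 11 and 23 genes without WT cDC1 replicates 1 and 2, 8 and 9 without cKO cDC1 replicates 1 and 2, and 28 and 13 without cKO cDC2 replicates 1 and 3. The 95% interval of the cDC1 effect lay within 0.5 of 0 for 4 of the 10 and 11 of the 35. Of the 10, 1 kept the call for the difference without each library in turn, and of the 35, 6 did.

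Plcb4 and Plcb1, which encode phospholipase C beta enzymes that act below G protein-coupled receptors, were both among the 10 that rose. Plcb4 was at 4.70, 4.41 and 2.83 TPM in WT and 39.9, 32.5 and 36.8 TPM in cKO cDC2s, against 30.3 and 29.0 TPM in WT and 39.4 and 37.2 TPM in cKO cDC1s. In WT it was a cDC1 gene, and in cKO the 2 subsets held the same range. Its effect in cDC1s was 0.36, with a 95% interval from -0.04 to 0.76. Plcb1 rose from 0.28, 0.35 and 0.54 TPM to 4.62, 3.74 and 4.34 TPM in cDC2s and was at or below 0.6 TPM in cDC1s.

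Pltp, the phospholipid transfer protein, rose from 47.5, 78.7 and 81.3 TPM to 379, 267 and 304 TPM in cDC2s and was under 1 TPM in all cDC1 libraries. Il1rn, the IL-1 receptor antagonist, rose from 9.59, 16.0 and 13.4 TPM to 42.0, 40.1 and 50.3 TPM in cDC2s and stayed at or below 0.45 TPM in cDC1s. Both were cDC2 genes in WT and the gap to cDC1s widened in cKO. Ocstamp, named for its role in the fusion of osteoclasts, rose from 6.26, 6.01 and 7.23 TPM to 26.5, 19.8 and 25.0 TPM in cDC2s, and was at 66.0 and 54.2 TPM in WT and 60.0 and 63.5 TPM in cKO cDC1s.

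The 35 genes that fell in cDC2s only were mostly low in cDC1s. The median level over them was 0.63 TPM in WT cDC1s and 11.3 TPM in WT cDC2s, and 32 of the 35 were higher in WT cDC2s. Hoxc4, a homeobox factor, fell from 10.8, 10.4 and 11.3 TPM to 1.01, 1.04 and 1.03 TPM in cDC2s and was at or below 0.3 TPM in cDC1s, a difference of 2.69 ± 0.20 (SE, adjusted p = 0.00011). Ryr3, an intracellular calcium channel, fell from 16.1, 25.2 and 25.4 TPM to 3.40, 2.86 and 3.42 TPM in cDC2s and was at or below 0.15 TPM in cDC1s. Another homeobox gene, Hoxa5, was also in this class.

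Blk, a SRC-family kinase known from B cells, fell from 13.8, 14.6 and 19.9 TPM to 3.35, 3.84 and 3.42 TPM in cDC2s, beside 0.24 and 0.65 TPM in WT and 0.42 and 1.2 TPM in cKO cDC1s. Tmod2, a protein that caps actin filaments, fell from 10.6, 11.5 and 10.2 TPM to 2.11, 1.85 and 1.97 TPM. Nid1, a basement membrane protein, fell from 4.73, 6.75 and 5.59 TPM to 0.82, 1.21 and 1.29 TPM. For the last 2 the cDC1 effects were 0.19 (95% interval from -0.14 to 0.51) and 0.49 (95% interval from -0.07 to 1.04), so that for Nid1 the cDC1 estimate lay close to the limit of 0.5.

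**Figure D4:**
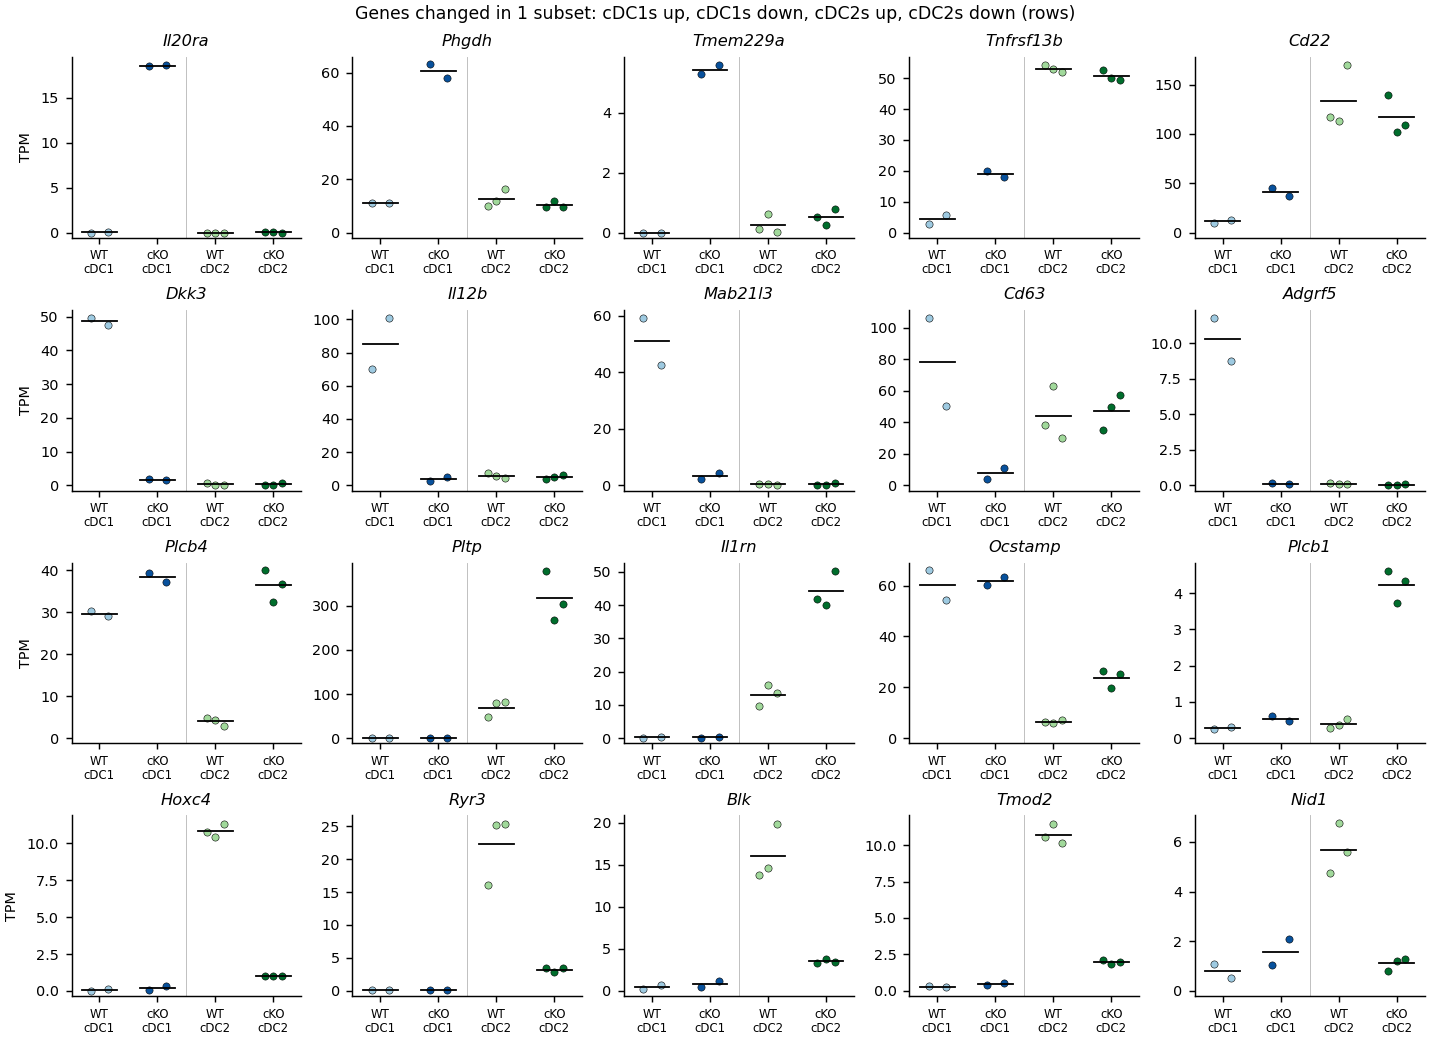
TPM in each of the 10 cDC libraries for the 20 named genes called in 1 subset only, with points for libraries and bars for group means. The rows show genes higher in cKO cDC1s, lower in cKO cDC1s, higher in cKO cDC2s and lower in cKO cDC2s, and in each row the WT and cKO points are apart in the named subset.

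The widest differences were in genes that rose in both subsets to unequal levels. Among the 27 genes called in both with the same sign, 10 had a positive and 17 a negative difference. Cnpy1, which encodes a regulator of FGF signalling, was at 0.11 and 0.07 TPM in WT and 311 and 342 TPM in cKO cDC1s, and at 1.36, 0.49 and 0 TPM in WT and 4.62, 4.26 and 4.75 TPM in cKO cDC2s, a difference of 6.36 ± 0.39 (SE, adjusted p = 5.8e-05). Its neighbour En2 (engrailed 2, a homeobox factor of the developing midbrain and hindbrain) went from 0.2 and 0.24 TPM to 71.5 and 78.1 TPM in cDC1s and from 0.86, 0.35 and 0.17 TPM to 2.91, 3.91 and 3.82 TPM in cDC2s. The third gene of that cluster, Rbm33, was called in cDC1s only, with an effect of 1.36 there and -0.13 in cDC2s. Epb41l4b, a membrane-associated protein of the band 4.1 family, rose from 0.64 and 1.42 TPM to 599 and 629.9 TPM in cDC1s and from 5.21, 1.61 and 1.08 TPM to 42.7, 43.5 and 46.7 TPM in cDC2s. These 3 genes were called in both subsets, with cKO cDC1s far above cKO cDC2s.

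Bcl2l11, which encodes the proapoptotic BH3-only protein BIM, differed the other way. It rose from 50.7 and 37.6 TPM to 82.7 and 82.5 TPM in cDC1s and from 12.4, 13.9 and 15.7 TPM to 71.7, 60.5 and 67.6 TPM in cDC2s. The effect was 0.90 in cDC1s and 2.17 in cDC2s, a difference of -1.27 ± 0.20 (SE, adjusted p = 0.0051). Its WT level was higher in cDC1s, and the cKO cDC2s came near the cKO cDC1s, 1.58 log2 units apart in WT and 0.31 in cKO. Of 18 tested proapoptotic genes it was the only one called for the difference, and the list's median was 0.06, beside 0.22 over all tested genes. Of 12 prosurvival genes none was called for the difference in limma. Their median difference was -0.56, with 8 of the 12 below 0 and 4 above, and 5 had an unadjusted p under 0.05. That level was passed by 30.7% of all tested genes. In cKO cDC1s 6 prosurvival genes were called lower and 3 higher, beside 6.56% and 15.8% of all tested genes. None was called in cKO cDC2s.

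Over all 11411 tested genes, 30.7% had an unadjusted p under 0.05 for the difference. The counts at that level below stand beside this share. Counts called in single subsets stand beside 15.8% of all tested genes called higher and 6.56% lower in cKO cDC1s. In cKO cDC2s these shares were 3.59% and 3.56%. Of 26 tested genes of mature, migratory dendritic cells, 23 were called lower in cKO cDC1s and 5 lower in cKO cDC2s, and none higher in either. The median effects were -1.79 and -0.51, and the median difference was -1.18, beside 0.22 over all tested genes. By name 3 were called for the difference, Il12b, Ccl22 and Cd274, and 18 of the 26 had an unadjusted p under 0.05. Ccl22, a chemokine that draws CCR4-bearing T cells, fell from 139.8 and 91.8 TPM to 13.6 and 14.5 TPM in cDC1s and was at 21.9, 30.3 and 21.6 TPM in WT and 23.5, 38.3 and 49.0 TPM in cKO cDC2s. Cd274 (PD-L1) fell in both, from 43.5 and 38.5 TPM to 5.94 and 7.87 TPM in cDC1s and from 159, 141 and 138 TPM to 98.8, 86.7 and 89.9 TPM in cDC2s, a difference of -1.75 ± 0.18 (SE, adjusted p = 0.00052).

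Among 20 tested cytokine and chemokine genes, 3 were called for the difference, all negative. Besides Il12b and Ccl22 this was Ccl6, a CC chemokine of myeloid cells, at 46.2 and 48.6 TPM in WT and 37.4 and 38.9 TPM in cKO cDC1s and at 62.1, 83.0 and 66.7 TPM in WT and 124, 121 and 128 TPM in cKO cDC2s. Of 15 cDC1 identity genes, 3 were called lower in cKO cDC1s and 1 for the difference. That was Itgae (CD103, an integrin chain), which fell from 77.7 and 62.0 TPM to 9.63 and 10.1 TPM in cDC1s and was at or below 1.42 TPM in cDC2s. Clec9a had an effect of -1.33 in cDC1s and 0.35 in cDC2s, and its difference of -1.68 was not called (adjusted p = 0.03). Irf8 was at 1754 and 1720 TPM in WT and 1928 and 1855 TPM in cKO cDC1s and at 47.4, 31.5 and 24.2 TPM in WT and 53.2, 42.3 and 89.8 TPM in cKO cDC2s, with overlapping cDC2 groups and a difference of -0.69 ± 0.43 (SE, adjusted p = 0.30). No gene of the 17-gene cDC2 identity list was called for the difference, and 8 of the 17 had an unadjusted p under 0.05. In single subsets these genes did move, with 4 called higher and 2 lower in cKO cDC1s. In cKO cDC2s 5 were called higher and 4 lower. The differences of the 17 were above 0 for 10 and below 0 for 7, with a median of 0.33.

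On the positive side, the 22 sterol synthesis genes had a median difference of 0.67, beside 0.22 over all tested genes. Of these, 9 were called higher in cKO cDC1s and none in cKO cDC2s, 2 were called for the difference and 17 had an unadjusted p under 0.05. Fdps, farnesyl diphosphate synthase, rose from 71.5 and 73.8 TPM to 175 and 166 TPM in cDC1s and was at 36.5, 33.0 and 35.6 TPM in WT and 37.4, 35.6 and 41.3 TPM in cKO cDC2s. Hmgcs1, which makes HMG-CoA, rose from 26.1 and 29.7 TPM to 58.4 and 49.2 TPM in cDC1s and was at 34.9, 37.4 and 32.6 TPM in WT and 29.7, 30.4 and 31.6 TPM in cKO cDC2s. Each had a difference of 1.11, and that of Hmgcs1 was not called under median-of-ratios scaling. Of 19 heat shock genes, 10 were called higher in cKO cDC1s and 1 in cKO cDC2s, beside 15.8% and 3.59% of all tested genes. The mitochondrial chaperone Hspd1 was the 1 called for the difference, at 113 and 118 TPM in WT and 292 and 259 TPM in cKO cDC1s beside 108 to 137 TPM in the 6 cDC2 libraries.

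Of 42 tested cell cycle genes, 27 were called higher in cKO cDC1s and 15 in cKO cDC2s, and none was called for the difference in limma. Their median difference was 0.53, beside 0.22 over all tested genes, and 15 had an unadjusted p under 0.05. Of 19 glycolysis genes, 9 were called higher in cKO cDC1s and 7 in cKO cDC2s, and Slc2a3 was the 1 called for the difference. Genes of the TGF-beta and SMAD list (21 tested), Toll-like receptors (22), interferon-stimulated genes (25), MHC class II presentation (12), NF-kB factors (17), immediate-early genes (24) and lysosomal proteases (15) held no gene called for the difference in limma. In the same order 6, 8, 11, 6, 4, 4 and 6 of them had an unadjusted p under 0.05. Their median differences, in that order, were -0.004, -0.05, 0.46, -0.40, -0.36, -0.26 and -0.24. In cKO cDC1s 0, 0, 7, 0, 1, 1 and 2 were called higher and 2, 2, 0, 4, 4, 9 and 0 lower. In cKO cDC2s 1, 0, 0, 0, 0, 0 and 1 were called higher and 1, 1, 0, 1, 0, 3 and 0 lower.

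**Figure D5:**
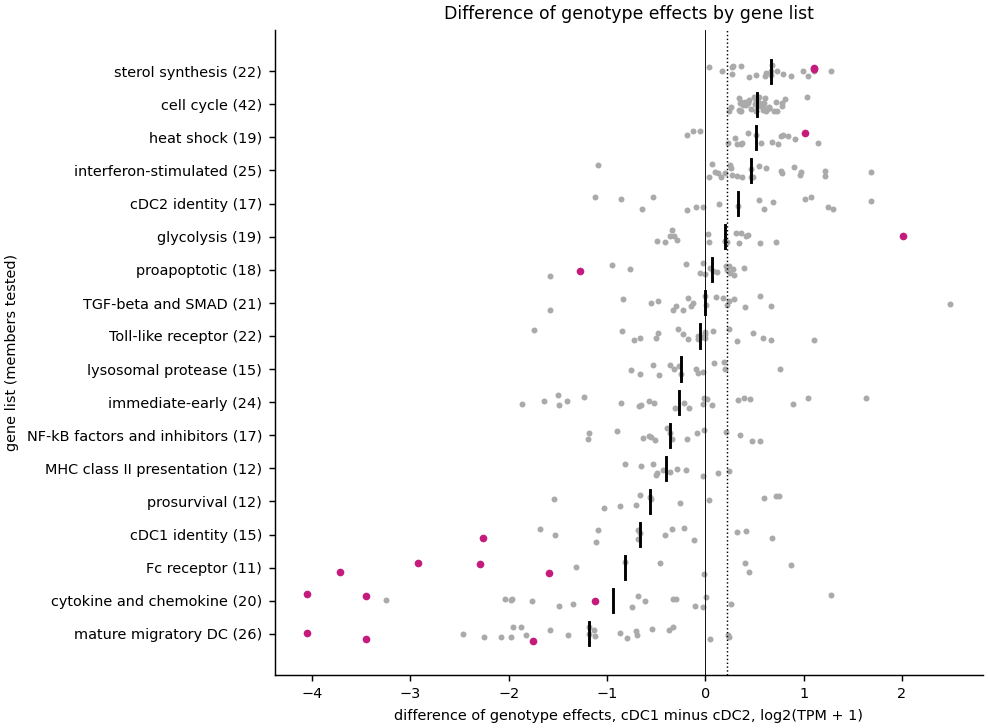
Difference of genotype effects (cDC1 minus cDC2, log2(TPM + 1), x axis) for the tested members of 18 gene lists, with the number tested in brackets. Pink points are members called for the difference, grey points the others, black bars list medians, and the dotted line the median of 0.22 over all tested genes. The mature migratory list has the lowest median (-1.18) and the sterol synthesis list the highest (0.67).

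Of 46 named genes called for the difference, 24 kept that call, whatever their subset calls, in limma in every fit without 1 library, among them Fcrla, Gstp3, Lilrb4a, Ttc39b, Gstt3, Ppt2, Arhgap6, Rcn3, Il20ra, Phgdh, Il12b, Dkk3, Plcb4, Hoxc4, Ryr3, Ccl22 and Cd274. The other 22 kept their sign and lost the call without the libraries given here, with the range of the difference in those fits and adjusted p-values up to 0.051. Among genes with opposite signs these were Slc2a3 without either cKO cDC1 library (2.00 to 2.02), St3gal6 without WT cDC1 replicate 1 or cKO cDC1 replicate 2 (1.47 to 1.52) and Faah without WT cDC1 replicate 1 or either cKO cDC1 library (1.47 to 1.56). Slc6a12 lost it without WT cDC1 replicate 1, either cKO cDC1 library or cKO cDC2 replicates 2 or 3 (1.79 to 1.95), and Fcgr3 without WT cDC1 replicate 1, either cKO cDC1 library, WT cDC2 replicate 1 or cKO cDC2 replicates 1 or 3 (-1.66 to -1.43). Fcgr2b, which was in no class, lost it without any of the 4 cDC1 libraries or cKO cDC2 replicates 2 or 3 (-2.35 to -2.23). Among genes of cDC1s only these were Tmem229a without WT cDC1 replicate 1 (2.39), Tnfrsf13b without either cKO cDC1 library (1.96 to 2.10), Itgae without WT cDC1 replicate 1 or either cKO cDC1 library (-2.29 to -2.10), Hspd1 without WT cDC1 replicate 1 or cKO cDC1 replicate 1 (0.93 to 0.98) and Fdps without cKO cDC1 replicate 1 (1.07). Hmgcs1 lost it without WT cDC1 replicate 1, cKO cDC1 replicate 1 or cKO cDC2 replicate 3 (0.99 to 1.13), Cd22 without WT cDC1 replicate 1, either cKO cDC1 library or cKO cDC2 replicates 2 or 3 (1.75 to 2.08), and Cd63 without any library other than WT cDC1 replicate 2 and WT cDC2 replicate 2 (-3.98 to -2.76). Among genes of cDC2s only these were Pltp (-2.42 to -2.08) and Plcb1 (-1.71 to -1.58), both without WT cDC1 replicate 1, either cKO cDC1 library or cKO cDC2 replicate 3, and Ocstamp without cKO cDC1 replicate 1 (-1.63). Blk lost it without WT cDC1 replicate 1, cKO cDC1 replicate 2 or cKO cDC2 replicate 3 (1.89 to 2.18), Nid1 without WT cDC1 replicate 2, cKO cDC1 replicate 2 or cKO cDC2 replicates 1 or 3 (1.85 to 2.21), and Ccl6 without any cDC1 library or cKO cDC2 replicates 1 or 3 (-1.16 to -1.09). Il1rn lost it without any library other than WT cDC2 replicates 1 and 2 (-1.92 to -1.55). Bcl2l11 was called in both subsets with the same sign. It lost the call for the difference without WT cDC1 replicate 1, either cKO cDC1 library, WT cDC2 replicate 2 or cKO cDC2 replicates 1 or 3 (-1.27 to -1.06).

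Many of these genes marked 1 subset in WT. The gap between the 2 subsets, taken as the difference of their mean log2(TPM + 1), had a median size of 1.82 in WT and 1.15 in cKO over the 292 genes, and 0.38 and 0.35 over all tested genes. It was narrower in cKO for 191 of the 292 genes (65.4%), against 55.2% of all tested genes. It was narrower for all 8 genes higher in cKO cDC1s and lower in cKO cDC2s, for 32 of 35 genes lower in cKO cDC2s only and for 60 of 79 genes higher in cKO cDC1s only. For genes lower in cKO cDC1s and higher in cKO cDC2s it was narrower in 9 of 18, and for genes higher in cKO cDC2s only in 3 of 10. In the largest class, genes lower in cKO cDC1s only, it was narrower for 53 of 87. It was narrower for 10 of 27 genes called in both subsets with the same sign, whose median gap was 0.76 in WT and 1.77 in cKO. Among the genes in no class it was narrower for 16 of 28. The WT gap enters the difference itself, so these shares are a description.

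Plasmacytoid dendritic cells (pDCs), of which 3 WT and 3 cKO libraries were fitted apart, took no part in choosing the genes. Among 11299 genes tested in pDCs, 0.814% had a call for a higher and 0.239% for a lower level in cKO. Of the 26 genes with opposite signs, 19 were tested in pDCs, none was called in limma and 4 had an unadjusted p under 0.05, beside 20.6% of all genes tested in both cDCs and pDCs. Of the 292 genes, 213 were tested, of which 12 were called higher and 3 lower. Plcb4 and Plcb1, which rose in cDC2s only, also rose in pDCs, by 1.97 and 1.38 on the log2 scale, and Fcgr2b rose by 1.23. Cd22, which rose in cDC1s only, rose in pDCs by 2.2. Blk, which fell in cDC2s, rose in pDCs by 1.59 (adjusted p = 0.00095), so its called changes had opposite signs in cDC2s and pDCs, a difference that was not tested. Cnpy1 and Epb41l4b rose in pDCs by 1.87 and 2.69.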

How the data were processed

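RNA-seq had been run on sorted splenic dendritic cells (single-end 50-base reads). Per the labels and the study's methods, the authors filtered reads with SOAPnuke, aligned them with Bowtie2 2.2.5 and quantified genes with RSEM 1.2.12; HISAT2 2.0.4 made separate mm10 alignments. The authors deposited TPM values (summing to 1000000 per library) and FPKM values per gene, not counts. Depth was estimated from the whole-read steps of the FPKM values. Here log2(TPM + 1) of the 10 cDC libraries was fitted with limma 3.58.1 (R 4.3.3) as 4 group means, with a variance trend, over 11411 genes with mean TPM of at least 1, and p-values were Benjamini-Hochberg adjusted over all of them. A fold on this scale understates the change of low genes. pDC libraries were fitted apart, since their table was made separately. The FPKM values served as an alternative. On simulated data of 11411 genes, 100 of 100 differences of log2 2 and 43 of 100 of log2 1 were recovered, with 0 false calls. The simulation changed only genes with a mean log2(TPM + 1) above 2, in cDC1s alone. It drew independent normal noise and gave no other gene a genotype effect. It covers neither low genes nor the shift of the median difference, so these rates do not carry over to the real libraries.

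A gene counted as moving in 1 subset only if called for the difference and in that subset, not called in the other, and under 0.5 there. Named were the 6 widest differences in each opposite class and the 5 widest in each class of 1 subset (symbols that are no placeholders, libraries not overlapping), the 3 widest with the same sign, 8 set genes (among them Itgax, Siglech and H2-Ab1) and up to 5 called members of each gene list. Members and lists were chosen with earlier results of these data known. Gene names and positions came from RefSeq (GRCm38.p6), which named 17667 of 17721 identifiers. The authors' annotation release is not given in the sources used here. Intervals and floors cover counting or library spread only. Alternatives were other scalings, pseudocounts, filters, thresholds and variance models, FPKM, replicate blocks, and leaving out each library.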

Additional observations from a re-analysis of the deposited data

Results flagged for a closer look

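Each value below is the difference of genotype effects (cDC1 minus cDC2, log2(TPM + 1)) of a named gene whose effects in the 2 subsets differed in the limma test of the difference itself. No group of libraries was large enough for a check of outlying samples.

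Lower in cKO cDC1s and higher in cKO cDC2s were Fcrla (-3.72), Gstp3 (-3.03), Lilrb4a (-2.81), Ttc39b (-2.72), Gstt3 (-2.33), Ppt2 (-2.22) and Fcgr3 (-1.59). Higher in cKO cDC1s and lower in cKO cDC2s were Slc2a3 (2.01), Slc6a12 (1.93), Arhgap6 (1.87), St3gal6 (1.66), Rcn3 (1.56) and Faah (1.51).

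Higher in cKO cDC1s only were Il20ra (4.16), Phgdh (2.61), Tmem229a (2.39), Tnfrsf13b (2.03), Cd22 (1.93), Hmgcs1 (1.11), Fdps (1.11) and Hspd1 (1.02). Lower in cKO cDC1s only were Dkk3 (-4.10), Il12b (-4.05), Mab21l3 (-3.64), Cd63 (-3.37), Adgrf5 (-3.21) and Itgae (-2.26).

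Higher in cKO cDC2s only were Plcb4 (-2.57), Pltp (-2.25), Il1rn (-1.74), Ocstamp (-1.67), Plcb1 (-1.65) and Ccl6 (-1.13). Lower in cKO cDC2s only were Hoxc4 (2.69), Ryr3 (2.48), Blk (2.2), Tmod2 (2.16) and Nid1 (2.15).

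Called in both subsets with the same sign were Cnpy1 (6.36), Epb41l4b (4.46), En2 (4.30), Bcl2l11 (-1.27) and Cd274 (-1.75). Called for the difference and in no class were Ccl22 (-3.45), Fcrlb (-2.92) and Fcgr2b (-2.29).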

How the results depend on the processing

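The number of genes called for the difference (292) was 1286 at a looser threshold (adjusted p up to 0.05, any fold), 88 without the cDC2 libraries numbered 3, 145 with the replicate block and 4 with the replicate block by pool (Cnpy1 and En2 among them). Genes of opposite direction (26) numbered 75 at the looser threshold, 3 at an absolute log2 of at least 1, 12 with no filter, 4 without the cDC2 libraries numbered 3 and 8 with the replicate block. Genes of cDC1s only (166) numbered 760 at the looser threshold, 37 without the cDC2 libraries numbered 3 and 76 with the replicate block. Genes of cDC2s only (45) numbered 183 at the looser threshold, 24 at a mean TPM of at least 5, 19 with a pseudocount of 0.1, 10 without the cDC2 libraries numbered 3 and 16 with the replicate block. Calls in cDC1s (2555) were 4522 at the looser threshold and 1000 at an absolute log2 of at least 1, and calls in cDC2s (816) were 2274, 293 and, without the cDC2 libraries numbered 3, 383. pDC calls (119) were 24 with no filter and 335 with the replicate block.

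Leaving out 1 library gave 77 to 282 genes for the difference, 4 to 18 of opposite direction, 27 to 156 of cDC1s only, 8 to 39 of cDC2s only, 800 to 2888 called in cDC1s, 316 to 907 in cDC2s and 12 to 97 in pDCs. No called difference of a named gene changed sign under the alternatives run (of those not called, Trim33, Sirpa and H2-Ab1 did), nor did the subset effects, which were rerun for Trim33 and the 13 named genes of opposite direction. Trim33 kept its calls in both subsets. The cause of the lost calls was not tested.

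Whether replicate numbers pair the libraries is not settled by these data. Deviations of same-numbered WT and cKO libraries correlated at -0.233 in cDC1s and at -0.249, 0.253 and -0.165 in cDC2s. With 2 cDC1 libraries a genotype the deviations mirror each other, so both numbers give the same value. For the block by pool, same-numbered cDC1 and cDC2 libraries correlated at -0.531 and -0.384 in WT and at -0.060 and 0.031 in cKO. The labels do not say whether they came from 1 sort, so the 4 calls under that block rest on an unshown pairing. A crossed replicate block, added after the data were seen, swapped the numbers of the WT cDC1 libraries only and was not run by pool. It gave 237 genes for the difference, 17 of opposite direction and 29 of cDC2s only.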
